A study of Mus musculus with 10 samples.

Results

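Aktip, the mouse gene that encodes Ft1, was examined in the heart together with the 7 genes of its known complex, Hook1, Hook2, Hook3, Fam160a1, Fam160a2, Fam160b1 and Fam160b2. These 8 genes were chosen by name, for their place in the complex, from 17575 genes listed in the data. All 8 were found under these symbols in each of the 3 tables of results. The hearts came from 1 week old male mice in 3 groups. They were 3 WT hearts, 3 Ft1ko hearts from mice in which a floxed Ft1 allele was deleted in the whole body by a CMV-cre transgene that was then bred out, and 4 Ft1sm22ko hearts from mice in which Cre driven by the sm22 promoter deleted the floxed allele. The gene sm22, also named Tagln, marks smooth muscle cells, and its promoter is known to be active for a time in the embryonic heart muscle as well. The floxed allele was made from a ko-first allele with flippase. RNA of cardiac tissue was sequenced, so a level is a mean over all cells of the sample. Fewer cells of a type cannot be told apart from less RNA per cell. Markers of lung and thymus cells are given below, and whether the samples held other tissue was not tested.

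Ft1 belongs to the variants of ubiquitin conjugating enzymes, which keep the fold of an E2 enzyme but lack its catalytic cysteine. It is named for the fused toes mouse and, as Aktip, for binding the kinase Akt, and it sits in the complex called FHF, for Fts, Hook and FHIP. The Hook proteins are activating adaptors: their coiled coils join the motor dynein to dynactin for travel along microtubules, and their tails hold Ft1. The FHIP proteins, encoded by the Fam160 genes, select the cargo. FHIP1B, the product of Fam160a2, links the complex to early endosomes marked by Rab5, and FHIP2A, the product of Fam160b1, links Hook2 to membranes marked by Rab1. FHIP1A comes from Fam160a1 and FHIP2B from Fam160b2.

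In the GRCm38 annotation Aktip (ENSMUSG00000031667) spans positions 91111784 to 91199976 of chromosome 8, read from the minus strand. The study quantified transcript signal on exons 4 and 5 of the gene, within a region that holds the deletion, and these coding exons are shown for that reason. The sources used here do not name the deleted exons or the transcript by which the study numbered them. In the first GENCODE M21 transcript of the gene, Aktip-201, exons 4 and 5 are chr8:91126865-91126929 and chr8:91126674-91126774, which make up 166 of 1171 bases, or 14.2%. In Aktip-202 the same exons are numbers 5 and 6, so that these are the study's exons is an assumption. The run below reads 5′ to 3′ along the gene, with exon 5 in capitals.
Aktip exons 4 and 5: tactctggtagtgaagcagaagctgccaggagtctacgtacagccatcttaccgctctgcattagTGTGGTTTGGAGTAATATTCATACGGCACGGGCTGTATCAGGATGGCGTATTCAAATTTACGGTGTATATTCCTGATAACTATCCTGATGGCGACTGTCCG
The deposited values count reads over the whole gene, so they do not separate these exons from the rest of the transcript.

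The 250 bases before the start of Aktip, of Hook1 and of Fam160a1 are shown because these genes had the largest changes among the 8 in Ft1ko hearts, with opposite signs. They come from the RefSeq annotation of GRCm38.p6, whose promoter table matched 5 of the 8 members. Each start is that of a RefSeq transcript and need not be the end of the whole gene: the windows of Aktip and Fam160a1 lie within the gene spans of the GENCODE annotation, and that of Hook1 overlaps the first bases of its span. It holds 3 windows for Aktip, and the window shown is the middle one. Capitals mark the TATA box TATAAA, the NF-Y box CCAAT, the GC box GGGCGG and the E-box CACGTG, each searched on both strands.
Aktip, chr8:91134028-91134277, minus strand: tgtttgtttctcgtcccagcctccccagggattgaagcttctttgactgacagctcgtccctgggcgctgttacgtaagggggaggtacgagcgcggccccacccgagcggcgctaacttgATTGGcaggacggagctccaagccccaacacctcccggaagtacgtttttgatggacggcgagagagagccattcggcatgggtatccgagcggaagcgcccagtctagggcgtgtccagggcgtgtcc
Hook1, chr4:95967129-95967378, plus strand: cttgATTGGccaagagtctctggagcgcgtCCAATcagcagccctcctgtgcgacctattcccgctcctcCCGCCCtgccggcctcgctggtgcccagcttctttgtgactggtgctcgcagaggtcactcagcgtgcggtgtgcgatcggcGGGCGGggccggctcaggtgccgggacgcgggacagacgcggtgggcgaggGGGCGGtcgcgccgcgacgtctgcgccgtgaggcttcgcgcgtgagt
Fam160a1, chr3:85746210-85746459, minus strand: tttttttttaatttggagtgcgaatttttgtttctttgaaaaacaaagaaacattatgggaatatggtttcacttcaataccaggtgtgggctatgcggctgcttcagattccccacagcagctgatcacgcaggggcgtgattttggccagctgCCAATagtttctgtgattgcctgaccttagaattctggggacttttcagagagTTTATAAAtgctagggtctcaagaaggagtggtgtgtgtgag
The Fam160a1 window held TATAAA and, overlapping it, the same letters on the other strand, beginning 42 bases before the start. Its GC content was 42.8%, with 4 CpG pairs. The Hook1 window held no TATAAA, 2 CCAAT and 3 GGGCGG matches, with a GC content of 70.4% and 32 CpG pairs. The Aktip window held 1 CCAAT match, a GC content of 61.6% and 21 CpG pairs. Among all 32851 promoter windows of this length, 12.4% held TATAAA, 33.8% CCAAT, 32.7% GGGCGG and 6.02% CACGTG, and the medians were 52.4% GC and 6 CpG pairs. The 3 windows thus differed in letters and base composition, and a match is a description of the sequence only.

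The data are the results of the authors' DESeq2 fits to each pair of groups, with 1 mean, 1 log2 fold change, its standard error (SE) and its p per gene. They hold no value for a single heart, so a gene's overlap between hearts and the depth of each library are unknown. Labels number the samples of a group as replicates, and the study's methods count them as animals. The mean of each group was worked out here from the deposited mean and fold change and has no error of its own. It is given in normalized counts, which are read counts divided by a factor for the depth of the library, on the scale of the Ft1ko and WT fit. Each group's mean could be worked out from 2 tables, and for the 8 genes these values differed by at most 0.948%. A gene was called changed when the p of the Wald test, adjusted by Benjamini-Hochberg over all genes with a p, was under 0.05.

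RNA of Aktip was lowest in Ft1ko hearts, intermediate in Ft1sm22ko hearts and highest in WT hearts. The group means were 663.9 normalized counts in WT, 174.5 in Ft1ko and 287.3 in Ft1sm22ko. Ft1ko hearts thus held 26.3% of the WT level (95% interval 18.2% to 37.9%) and Ft1sm22ko hearts 43.3% (29.9% to 62.8%). Its log2 level fell by 1.93 in Ft1ko (SE 0.27, adjusted p = 5.08e-11) and by 1.21 in Ft1sm22ko (SE 0.27, adjusted p = 1.07e-04). The direct comparison of the mutants gave 0.72 more in Ft1sm22ko (SE 0.28, adjusted p = 0.0466), a call close to the threshold that was lost when fold changes were centred on the median of genes with a mean of at least 100 (adjusted p = 0.0580). The targeted gene thus followed the genotype labels, with counts over the whole gene left in both mutants. Over the deleted region the study reported no transcripts in Ft1ko and fewer in Ft1sm22ko, and its Q-PCR found Ft1 fully depleted in Ft1ko. The whole-gene counts do not separate that region from the rest, so they do not measure how complete the knockout was. By p, Aktip stood at rank 258 of 16748 genes in Ft1ko against WT. Of the 3213 bases covered by its exons, 693 also belong to exons of Rbl2 on the opposite strand, and whether reads were counted by strand is not given in the sources used here. Rbl2 was itself called higher in both mutants, by 0.78 (SE 0.31) in Ft1ko and by 0.56 (SE 0.18) in Ft1sm22ko, and the part of its reads in the Aktip values was not tested.

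**Figure D1:**
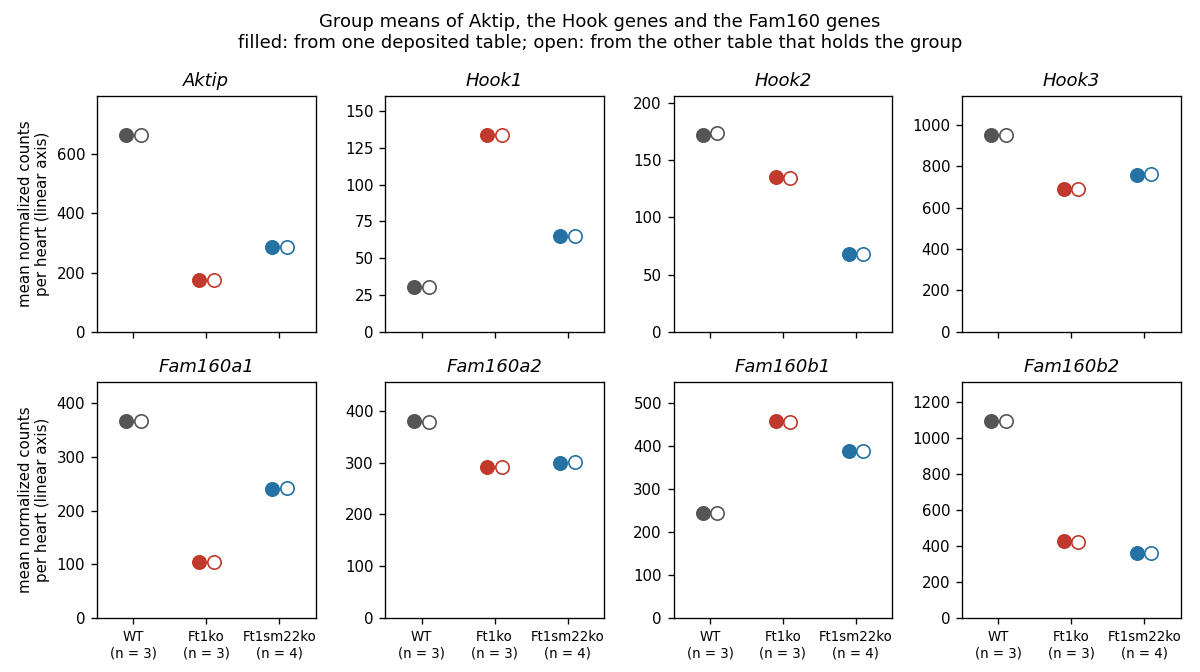
Mean normalized counts (linear vertical axes from 0) of the 8 genes in 3 WT, 3 Ft1ko and 4 Ft1sm22ko hearts, with filled points from one deposited table and open points from the other that holds the group, and with no error because no values per heart were at hand. Aktip stands at 663.9, 174.5 and 287.3, Hook1 is the member with the highest mean in Ft1ko relative to WT, and the paired points lie within 0.948% of each other.

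Among the 8 genes, 5 were called in Ft1ko against WT (2 higher and 3 lower), where 35.7% of all genes tested were called (19.7% higher and 16.1% lower). In Ft1sm22ko against WT 6 were called (2 higher and 4 lower), against 32.2% of all genes (16.2% higher and 16.0% lower). Between the mutants 4 were called (2 higher and 2 lower in Ft1sm22ko), against 19.8% of all genes (10.8% higher and 9.0% lower). Without Aktip, whose fall the deletion fixes, 4, 5 and 3 of the 7 partners were called. The mutants share the same WT hearts, so these counts are not independent of each other. The median log2 fold change of the 8 genes was -0.42 for Ft1ko and -0.47 for Ft1sm22ko against WT, with -0.09 for the direct comparison. The medians of all genes tested were 0.13, 0.06 and -0.05. Hook1, Fam160a1, Fam160b1 and Fam160b2 were each called in both mutants with the same sign, Hook2 was called in Ft1sm22ko alone, and Hook3 and Fam160a2 in neither. The partners did not move one way: Hook1 and Fam160b1 were higher and Fam160a1 and Fam160b2 lower in both.

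**Figure D2:**
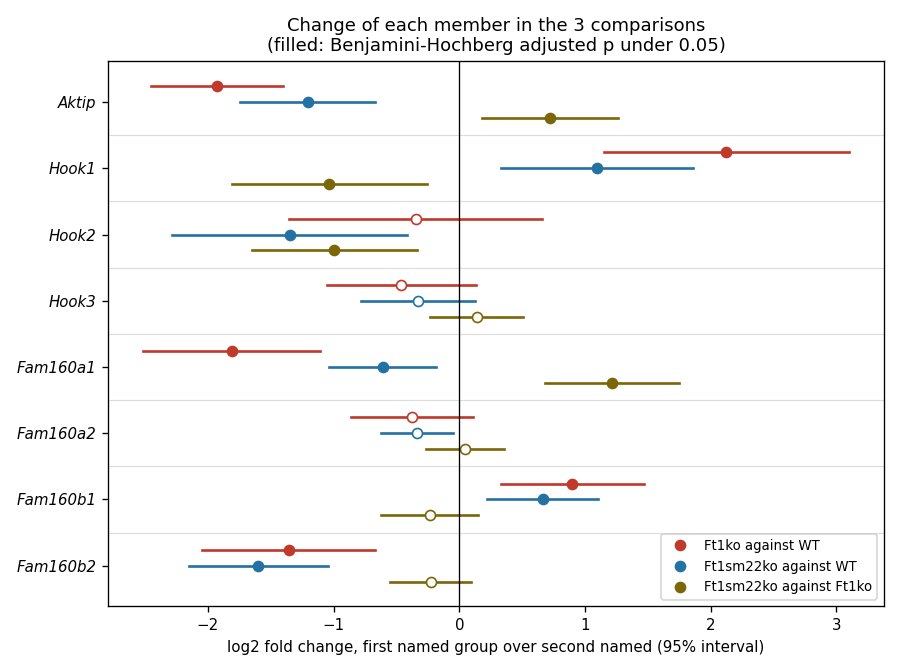
Log2 fold change of each gene (horizontal axis, first named group over second named) with its 95% interval from the deposited SE, for each mutant against WT and for Ft1sm22ko against Ft1ko, filled where called. Aktip, Fam160a1 and Fam160b2 lie left of 0 and Hook1 and Fam160b1 right of 0 in both comparisons with WT, and the intervals of Hook3 include 0 in all 3 comparisons.

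Hook1, an adaptor of early endosomes and the Hook protein needed for the shape of the sperm head, was the rarest member per kilobase of exon in WT hearts and rose in both mutants. The gene spans positions 95967240 to 96025413 of chromosome 4 (GRCm38, plus strand). Its mean was 30.7 normalized counts in WT, 133.7 in Ft1ko and 65.3 in Ft1sm22ko. The rise was 4.36-fold in Ft1ko (log2 2.12, SE 0.50, adjusted p = 1.60e-04) and 2.14-fold in Ft1sm22ko (log2 1.10, SE 0.39, adjusted p = 0.0193). Between the mutants Hook1 was lower in Ft1sm22ko, by 1.04 on the log2 scale (SE 0.40, adjusted p = 0.0464), a call lost after centring on the all-gene median (adjusted p = 0.0586). Its order over the groups was therefore the reverse of that of Aktip. Markers of epithelium moved with it. The summed mean of 8 general epithelial markers, led by Cdh1, Krt8 and Krt19, was 174.7 normalized counts in WT, 4694 in Ft1ko and 1216 in Ft1sm22ko, and 7 of 8 were called higher in Ft1ko and 3 of 6 tested in Ft1sm22ko. For 8 markers of lung epithelium the sums were 434.6, 48767 and 2876, and all 8 were called higher in Ft1ko, although Aqp5 and Sftpd were under 1 count in WT. In Ft1sm22ko Scgb1a1 alone gave 2382 of the lung sum, Ager had a log2 fold change of -2.44 against WT, and 1 of the 8, Aqp5, had a p. The 6 markers of motile cilia summed to 75.4, 1307 and 359.2, with 5 of 6 called higher in Ft1ko and none with a p in Ft1sm22ko against WT. The part of such cells in the Hook1 result was not tested. Exons of Hook1 share 317 of 6277 bases with a gene on the other strand, 9530080O11Rik.

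Hook2, an adaptor known at the centrosome, at the base of the cilium and on membranes that carry Rab1, fell in Ft1sm22ko and was not called in Ft1ko. The gene lies between 84990603 and 85003349 of chromosome 8 (GRCm38, plus strand), the chromosome of Aktip. Its mean was 171.7 normalized counts in WT, 135.2 in Ft1ko and 68.0 in Ft1sm22ko. It fell in Ft1sm22ko to 39.3% of WT (95% interval 20.5% to 75.1%, adjusted p = 0.0189). In Ft1ko its log2 fold change was -0.34 (SE 0.51, adjusted p = 0.634), with a 95% interval from -1.35 to 0.66 that leaves room for a fall as large as in the other mutant. The direct comparison gave a level lower by 0.99 on the log2 scale in Ft1sm22ko (SE 0.34, adjusted p = 0.0209). Hook2 thus had its lowest mean in Ft1sm22ko, where Aktip was not lowest. The spread between hearts that these SE imply, taking all libraries as equally deep, was 42.8% and 42.5% of the mean in the fits with WT and 29.7% in the fit of the mutants, the widest or second widest among the 8 genes in each.

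Hook3, an adaptor of the Golgi and of endosomes and per kilobase the most abundant Hook RNA in these hearts, was not called in any comparison. The gene lies on the same chromosome, from 26021421 to 26119224 (minus strand). Its means were 950.1 normalized counts in WT, 690.2 in Ft1ko and 758.6 in Ft1sm22ko. The log2 fold changes were -0.46 (95% interval -1.05 to 0.13, adjusted p = 0.236) and -0.33 (-0.78 to 0.13, adjusted p = 0.287) against WT, and 0.14 (-0.23 to 0.51, adjusted p = 0.661) between the mutants. A fall to 48.2% of WT in Ft1ko and to 58.2% in Ft1sm22ko lies within these intervals. The 3 Hook genes together summed to 1153 normalized counts in WT, 959.0 in Ft1ko and 892.0 in Ft1sm22ko.

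Fam160a1, which encodes FHIP1A, followed Aktip in direction and order. The gene spans positions 85660061 to 85817291 of chromosome 3 (minus strand). Its mean was 366.2 normalized counts in WT, 104.5 in Ft1ko and 240.3 in Ft1sm22ko. It fell to 28.6% of WT in Ft1ko (95% interval 17.5% to 46.5%, adjusted p = 7.01e-06) and to 65.6% in Ft1sm22ko (48.9% to 88.0%, adjusted p = 0.0192). Between the mutants it was 2.32-fold higher in Ft1sm22ko (log2 1.21, SE 0.27, adjusted p = 2.59e-04), the smallest adjusted p of any member there. Most heart muscle markers had the same order. The 8 cardiomyocyte markers summed to 1235785 normalized counts in WT, 228390 in Ft1ko and 494989 in Ft1sm22ko, of which Myh6 alone gave 676574, 130614 and 248289. Of these markers 6 of 8 were called lower in Ft1ko and 5 of 7 tested in Ft1sm22ko, and 4 of 8 were called higher in Ft1sm22ko than in Ft1ko. None was near 0, and Myh7, the lowest, had the other order, with 607.7 counts in WT, 1572 in Ft1ko (log2 fold change 1.37, adjusted p = 0.393) and 3128 in Ft1sm22ko (2.35, with no p). The part of the heart muscle share in the Fam160a1 result was not tested.

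Fam160b2, which encodes FHIP2B, fell in both mutants. The gene spans positions 70583296 to 70599835 of chromosome 14 (minus strand). Its mean was 1091 normalized counts in WT, 426.0 in Ft1ko and 362.0 in Ft1sm22ko. These were 39.0% of WT (95% interval 24.3% to 62.8%, adjusted p = 7.07e-04) and 33.0% (22.5% to 48.4%, adjusted p = 3.74e-07). Between the mutants the log2 fold change was -0.23 (95% interval -0.55 to 0.09, adjusted p = 0.349), so a difference of more than 0.55 in either direction lies outside the interval. With Hook2 it was a gene whose Ft1sm22ko mean did not lie between those of WT and Ft1ko, whereas the other 6 had an intermediate mean.

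Fam160b1, which encodes FHIP2A, rose in both mutants. The gene spans positions 57360680 to 57389586 of chromosome 19 (plus strand). Its mean was 244.5 normalized counts in WT, 456.4 in Ft1ko and 387.0 in Ft1sm22ko. The rise was 1.87-fold in Ft1ko (log2 0.90, SE 0.29, adjusted p = 0.00820) and 1.58-fold in Ft1sm22ko (log2 0.66, SE 0.23, adjusted p = 0.0141). The mutants were not told apart for this gene (log2 fold change -0.24, 95% interval -0.62 to 0.15, adjusted p = 0.437). Both Fam160b genes were therefore called in each mutant with opposite signs. Of 5 fibroblast markers 3 were called higher in Ft1ko and 5 in Ft1sm22ko, with median log2 fold changes of 0.74 and 1.87. Their sum was 12870 normalized counts in WT, 33279 in Ft1ko and 34783 in Ft1sm22ko, but without Col1a1 it was 6952, 6685 and 13095, and Dcn had a log2 fold change of -0.30 in Ft1ko (adjusted p = 0.347). Their part in the Fam160b1 result was not tested.

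Fam160a2, which encodes FHIP1B, the Rab5 partner, was not called in any comparison. The gene spans positions 105371211 to 105400054 of chromosome 7 (minus strand). Its means were 379.5, 291.7 and 299.8 normalized counts in WT, Ft1ko and Ft1sm22ko. The log2 fold change was -0.38 in Ft1ko (95% interval -0.86 to 0.11, adjusted p = 0.234) and -0.34 in Ft1sm22ko (-0.63 to -0.05, unadjusted p = 0.0206, adjusted p = 0.0607). After centring on the all-gene median it was called in Ft1sm22ko (-0.39, adjusted p = 0.0260). Between the mutants it was 0.05 (-0.27 to 0.36, adjusted p = 0.883). The 2 genes with no call in any comparison before centring were thus Hook3 and Fam160a2. Exons of Fam160a2 share 1181 of 10991 bases with Gm5901 on the other strand. The 4 Fam160 genes together summed to 2081 normalized counts in WT, 1279 in Ft1ko and 1289 in Ft1sm22ko.

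A stricter Bonferroni adjustment, which the study also used, was applied here over all genes with a p. Aktip and Fam160a1 passed in Ft1ko against WT and Fam160b2 passed in Ft1sm22ko against WT. No member passed between the mutants by this rule, where 4 had an unadjusted p under 0.05. The shares of all genes that passed were 8.98%, 7.62% and 2.45%. Against WT 1504 genes passed in Ft1ko and 1270 in Ft1sm22ko. The study reported fewer modulated transcripts in each mutant, so its own calls may differ from these. Aktip in Ft1sm22ko had a Bonferroni adjusted p of 0.16.

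**Figure D3:**
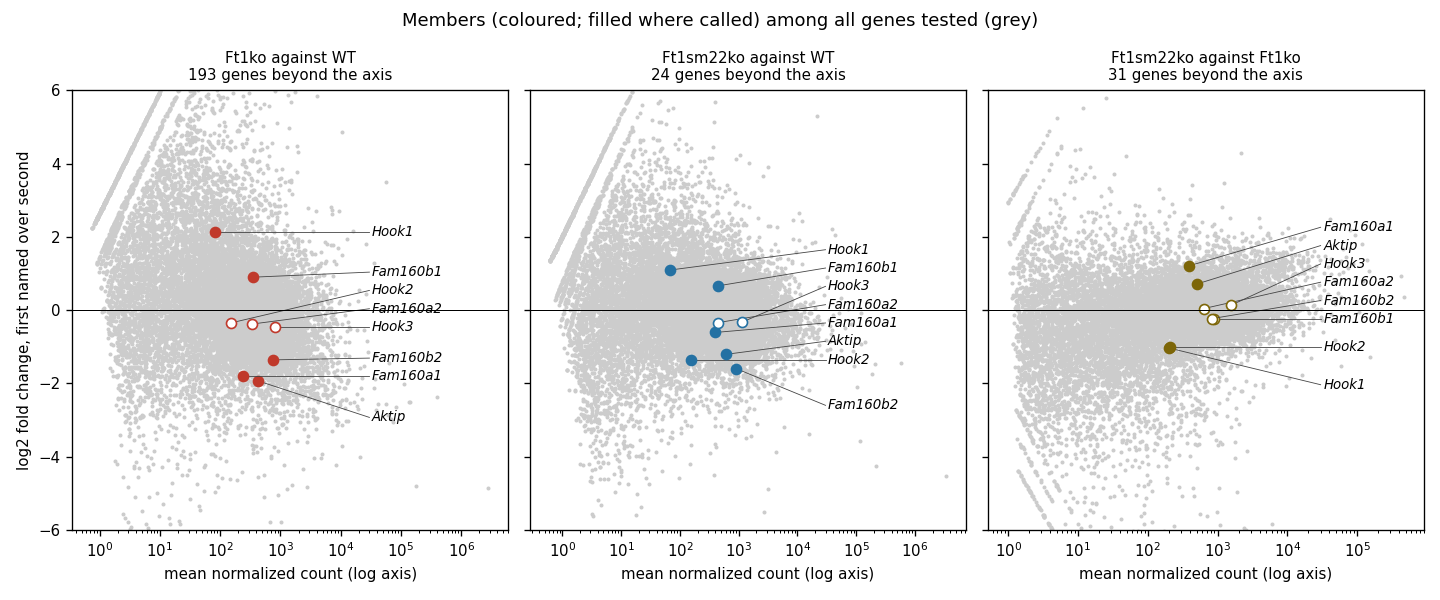
Log2 fold change (vertical axis, first named group over second) against the mean normalized count (log axis) of all genes tested (grey) and of the 8 members (coloured, filled where called) in the 3 comparisons, with genes beyond 6 on the vertical axis not drawn. Aktip lies at the percentile 4.98 of all log2 fold changes in Ft1ko against WT and Hook1 at the percentile 85.9, so that many genes changed more than any member.

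Members were compared with each other per kilobase of exon, since a long transcript gives more reads. In WT hearts Fam160b2 and Aktip led, at 270.5 and 206.6 normalized counts per kilobase. Fam160a1 followed at 82.1 and Hook3 at 74.0, then Hook2 at 43.2, Fam160b1 at 41.1 and Fam160a2 at 34.5, with Hook1 last at 4.89. Only Aktip and Fam160a1, and Fam160a2 and Hook1, were neighbours in this order that stood apart beyond a 95% interval made from the error behind their SE. In Ft1ko hearts Fam160b2 (105.6), Fam160b1 (76.7), Aktip (54.3) and Hook3 (53.8) led, and no neighbours differed beyond that error. In Ft1sm22ko hearts Fam160b2 and Aktip stood at 89.8 and 89.4, followed by Fam160b1 (65.0), Hook3 (59.1), Fam160a1 (53.9), Fam160a2 (27.3), Hook2 (17.1) and Hook1 (10.4). The neighbours that stood apart there were Aktip and Fam160b1, Fam160a1 and Fam160a2, and Fam160a2 and Hook2. Per kilobase of coding sequence, Aktip led in WT (757.9) ahead of Fam160b2 (488.8) and Hook3 (441.1), and Hook3 led in both mutants. The order of the first places therefore rests on the length used, while Hook1 was last in WT by either.

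Within the families the balance of members shifted. Hook1 made up 4.0% of the Hook sum per kilobase of exon in WT, 19.5% in Ft1ko and 12.02% in Ft1sm22ko. Hook2 made up 35.4%, 31.2% and 19.8%, and Hook3 60.6%, 49.3% and 68.2%. Hook3 thus remained the leading Hook RNA in every group. Fam160b2 fell from 63.2% of the Fam160 sum in WT to 45.5% in Ft1ko and 38.0% in Ft1sm22ko, while Fam160b1 went from 9.59% to 33.0% and 27.6%. Fam160a1 had shares of 19.2%, 10.1% and 22.8%. These shares come from group means and carry no test.

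**Figure D4:**
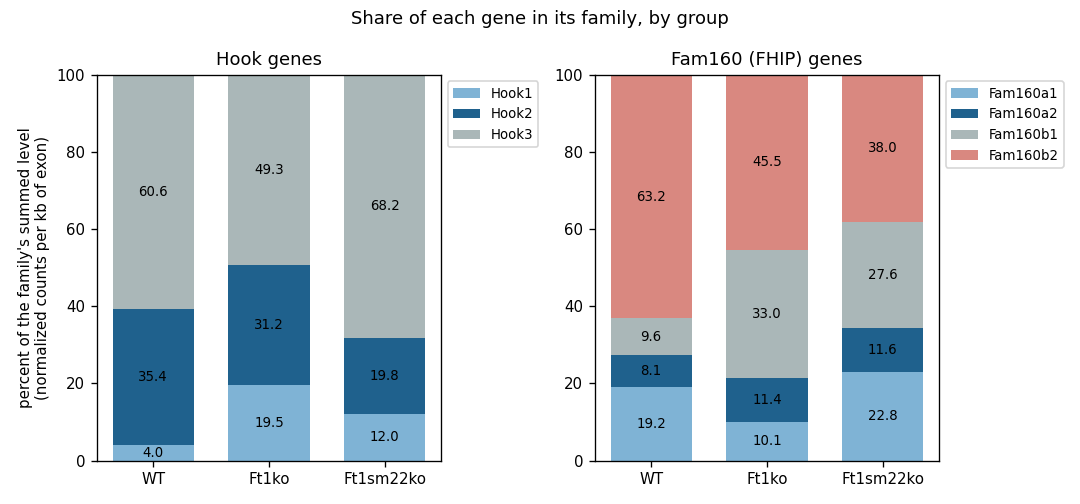
Share of each gene in the summed level of its family (percent, normalized counts per kilobase of exon, stacked from 0 to 100) in WT, Ft1ko and Ft1sm22ko hearts, for the Hook genes and the Fam160 genes. Hook1 grows from 4.0% in WT to 19.5% in Ft1ko, and Fam160b1 from 9.59% to 33.0%, with no error drawn because no values per heart were at hand.

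Genes that work with the complex were read from 9 lists of 87 genes: dynein, dynactin, the regulators of dynein, other adaptors, Rab proteins with AP-4 and cargo partners, endosomal tethers, the other ubiquitin conjugating enzyme variants, the Akt kinases with Pdk1, and the neighbours of Aktip on its chromosome. One gene, Dynlt1c, was not found in the tables. Of those tested 26 of 86 were called in Ft1ko (14 higher and 12 lower, 30.2%), 29 of 85 in Ft1sm22ko (18 higher and 11 lower, 34.1%) and 14 of 85 between the mutants (8 higher and 6 lower, 16.5%). These shares lie near those of all genes, 35.7%, 32.2% and 19.8%. The median log2 fold changes of the lists together were -0.05, 0.04 and 0.16.

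**Figure D5:**
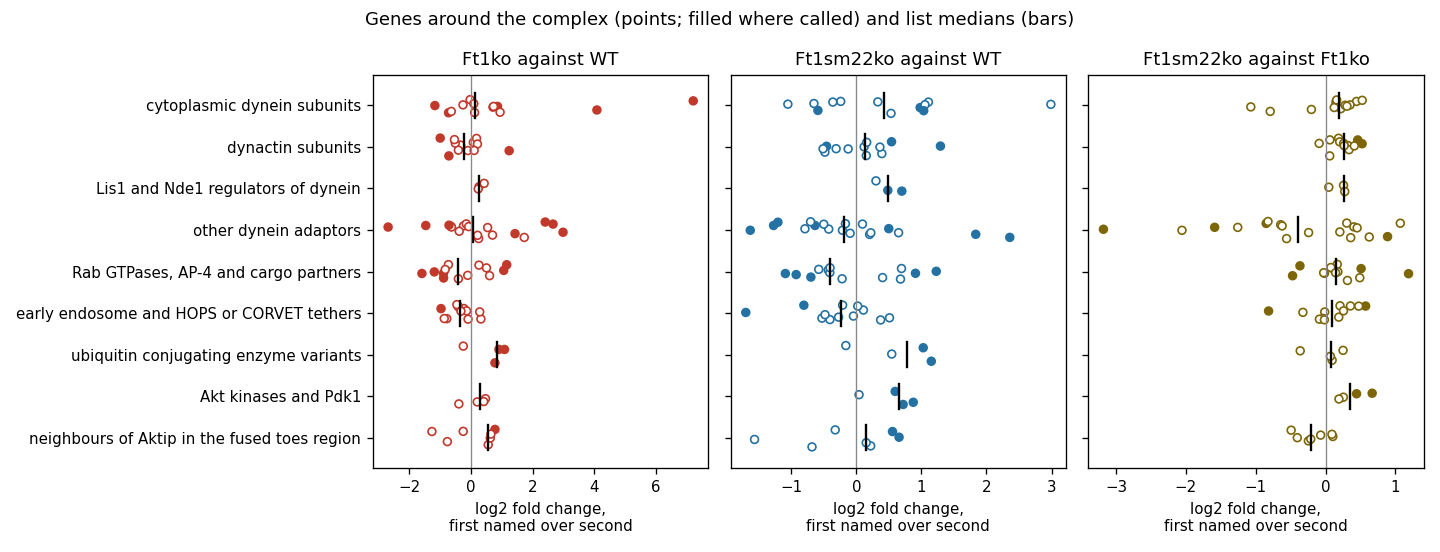
Log2 fold change (horizontal axis, first named group over second, with its own range in each panel) of the genes of each list that were tested in the 3 comparisons, filled where called, with a bar at the median of the list. Called genes lie on both sides of 0 in the lists of other adaptors and of Rab and cargo partners, and the called ubiquitin conjugating enzyme variants lie right of 0 in both comparisons with WT.

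Among 18 other adaptors, which compete with the Hook proteins for dynein and dynactin, 7 were called in each mutant (38.9%, against 35.7% and 32.2% of all genes). Rilp, which ties dynein to Rab7 on late endosomes, fell by 2.69 (log2) in Ft1ko (SE 0.52, adjusted p = 4.35e-06) and by 1.63 in Ft1sm22ko (SE 0.20, adjusted p = 2.66e-14). Mapk8ip3, the JIP3 adaptor, fell by 1.47 (SE 0.23, adjusted p = 1.28e-08) and by 1.27 (SE 0.17, adjusted p = 8.60e-12). Ccdc64, a relative of the Bicaudal D adaptors, rose by 2.98 (SE 0.65) and 2.36 (SE 0.49) from a mean of 12.3 normalized counts in WT. Ccdc88b, a relative of the Hook proteins, rose in Ft1ko by 2.41 (SE 0.77, adjusted p = 0.00717), had a log2 fold change of -0.79 in Ft1sm22ko (SE 0.36, adjusted p = 0.0772), and was lower by 3.18 in Ft1sm22ko than in Ft1ko (SE 0.67, adjusted p = 8.15e-05). The sums of the lung and thymocyte markers were also highest in Ft1ko, and the part of such cells in the Ccdc88b result was not tested. Called adaptors lay in both directions, 4 higher and 3 lower in Ft1ko and 3 higher and 4 lower in Ft1sm22ko, at a share near that of all genes.

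For the motor itself, 5 of 13 dynein subunits were called in Ft1ko and 3 of 12 tested in Ft1sm22ko, with none of 12 between the mutants. These are 38.5%, 25.0% and 0%, against 35.7%, 32.2% and 19.8% of all genes. The light chain Dynll1 rose by 0.86 (SE 0.34) and 0.98 (SE 0.25). Its near copy Dynll2 fell by 1.17 in Ft1ko (SE 0.37, adjusted p = 0.00735) and had a log2 fold change of -0.65 in Ft1sm22ko (SE 0.29, adjusted p = 0.0675). Dynlt3, another light chain, rose in Ft1sm22ko by 1.03 (SE 0.27, adjusted p = 0.00101) and had a value of 0.73 in Ft1ko (adjusted p = 0.132). Dynlrb2, a light chain of ciliated cells, was called higher in Ft1ko with means of 0.623 and 92.2 normalized counts in WT and Ft1ko, beside the cilium markers above, whose part was not tested. Of 12 dynactin subunits 3 (25.0%) were called in each mutant, again against 35.7% and 32.2% of all genes. The capping protein Capza1 rose by 1.24 (SE 0.35) and 1.29 (SE 0.27), and Dctn2 fell by 0.72 (SE 0.27) and 0.46 (SE 0.15). Dctn3 fell by 1.00 in Ft1ko (SE 0.29, adjusted p = 0.00306) and was higher by 0.52 in Ft1sm22ko than in Ft1ko (SE 0.20, adjusted p = 0.0430). The dynein regulators Pafah1b1 and Ndel1 rose in Ft1sm22ko by 0.70 (SE 0.23) and 0.48 (SE 0.19). Their values in Ft1ko were 0.43 (SE 0.27) and 0.23 (SE 0.28). Between the mutants neither was called (0.28, adjusted p = 0.273, and 0.26, adjusted p = 0.135). Of the 3 regulators 2 (66.7%) were thus called in Ft1sm22ko and none in Ft1ko, against 32.2% and 35.7% of all genes.

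On the cargo side, 6 of 13 Rab, AP-4 and cargo partner genes were called in Ft1ko and 5 of 13 in Ft1sm22ko, or 46.2% and 38.5% against 35.7% and 32.2% of all genes. Rab5a, the GTPase of early endosomes, rose by 1.16 (SE 0.30, adjusted p = 6.32e-04) and 1.23 (SE 0.19, adjusted p = 6.14e-09). Rab5b rose in Ft1sm22ko by 0.91 (SE 0.19, adjusted p = 2.85e-05). Of the AP-4 coat, which FHIP1B and Hook proteins serve, the accessory protein tepsin (Enthd2) fell by 1.19 (SE 0.33) and 1.09 (SE 0.24), and the small subunit Ap4s1 fell by 1.59 in Ft1ko (SE 0.53, adjusted p = 0.00975) and was higher by 1.19 in Ft1sm22ko than in Ft1ko (SE 0.23, adjusted p = 1.92e-05). Of 12 tethers of early and late endosomes 1 was called in Ft1ko (8.33%) and 2 in Ft1sm22ko (16.7%), all lower, where 16.1% and 16.0% of all genes were called lower. The Rab5 effector Rabep1 fell by 0.97 in Ft1ko (SE 0.25), the Rab5 effector Eea1 by 0.81 in Ft1sm22ko (SE 0.30) and Vps16 by 1.70 in Ft1sm22ko (SE 0.41, adjusted p = 3.05e-04). Eea1 had a value of -0.79 in Ft1ko (SE 0.37, adjusted p = 0.0870) and of -0.01 between the mutants (adjusted p = 0.984). Rabep1 had a value of -0.41 in Ft1sm22ko (SE 0.19, adjusted p = 0.0880) and was higher there than in Ft1ko by 0.57 (SE 0.11, adjusted p = 2.05e-05). The Rab5 genes called were higher and these effectors lower than in WT, but only 1 such effector was called in each mutant. The share of tethers called lower was near or below that of all genes.

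Of the 4 other ubiquitin conjugating enzyme variants, relatives of Ft1, 3 were called higher in Ft1ko and 2 in Ft1sm22ko, where 19.7% and 16.2% of all genes were. Ube2v1, which builds chains on lysine 63 with Ubc13, rose by 1.09 (SE 0.41, adjusted p = 0.0273) and 1.15 (SE 0.31, adjusted p = 0.00162). Uevld rose by 0.77 (SE 0.30, adjusted p = 0.0330) and 1.03 (SE 0.24, adjusted p = 1.86e-04). Ube2v2 rose by 0.90 in Ft1ko (SE 0.36, adjusted p = 0.0353) and had a value of 0.54 in Ft1sm22ko (adjusted p = 0.0661). Of the Akt kinases and their activator Pdk1, none was called in Ft1ko. In Ft1sm22ko Akt1 rose by 0.72 (SE 0.14, adjusted p = 4.50e-06) and Pdpk1, which encodes Pdk1, by 0.60 (SE 0.25, adjusted p = 0.0481). In the direct comparison Akt2 was higher in Ft1sm22ko by 0.44 (SE 0.14, adjusted p = 0.0151). Among 7 neighbours of Aktip, Fto, the RNA demethylase gene, rose in Ft1sm22ko by 0.66 (SE 0.21, adjusted p = 0.00915) and had a value of 0.56 in Ft1ko (adjusted p = 0.0899).

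The genes whose 3 log2 fold changes lay nearest to those of Aktip were sought among the 9736 genes that had a p in every table and whose mean was 100 normalized counts or more. The 5 nearest by Euclidean distance were Gadd45gip1 (0.0769), Ggt5 (0.0792), Pttg1 (0.0879), Cecr2 (0.0897) and Mrpl55 (0.0941), over 3 comparisons of 10 hearts. Gadd45gip1, a protein of the mitochondrial ribosome, had log2 fold changes of -1.86 and -1.17 against WT and 0.70 between the mutants. Within a distance of 0.25 there were 34 genes and within 0.5 there were 181. None of the 7 partners was among the 5 nearest. Hook1, with means of 82.2 and 68.0 in the fits with WT, was below the filter and could not be. With 5 places among 9736 genes, this absence says little about the other partners. The value between the mutants nearly equals the difference of the values against WT (median gap 0.0057 over 9773 genes), so it was not a separate measurement.

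Each heart group was also checked against its labelled tissue. Cardiomyocyte markers were abundant in all groups. The summed means of lung and thymocyte markers were highest in Ft1ko, and whether other tissue was in the samples was not tested. Tagln, the gene whose promoter drives Cre in Ft1sm22ko, was higher by 2.04 (SE 0.31) in Ft1ko and by 0.90 (SE 0.32) in Ft1sm22ko than in WT. The 7 smooth muscle markers summed to 16167 normalized counts in WT, 13531 in Ft1ko and 12376 in Ft1sm22ko, a sum of which Acta2 gave 8855, 6943 and 7454. The single markers went both ways: 4 of 7 were called higher and 2 lower in Ft1ko (median log2 fold change 1.39) and 2 higher and 1 lower in Ft1sm22ko (median 0.23). The 5 endothelial markers summed to 13631, 12252 and 15298. The 7 thymocyte markers summed to 76.6 in WT and 4780 in Ft1ko, and the 6 of them with a level in Ft1sm22ko summed to 97.4 there. None of the thymocyte markers has a p in Ft1ko against WT, and the lung and cilium markers lack most of theirs in Ft1sm22ko against WT, as given above. DESeq2 withholds a p where a single library holds an extreme count, and the tables do not show which library that was. All 8 members have a p in every comparison.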

How the data were processed

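The authors extracted RNA of 10 hearts with TRIzol and used the Universal Plus mRNA-Seq kit (library type fr-secondstrand). The authors aligned reads with STAR to a reference that the study and the submitters' processing notes name hg38, although the gene symbols are those of mouse. The authors then ran StringTie, htseq-count and DESeq2, with versions not given in the sources used here. By the authors, the deposited signal is the mean of counts over size factors of both groups, the deposited log2 fold change and SE are those of DESeq2, and the deposited p-value is from its Wald test. The authors' adjusted p and statistic were not used. No model was refitted here, and all comparisons rest on the authors' fit.

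The deposited sign is first named group over second, and was turned to mutant over WT and Ft1sm22ko over Ft1ko. With this reading the log2 ratio of a shared group's mean between tables had an SD of 0.0055 for WT over 9773 genes, against 0.61 with the other reading. The p-values were adjusted over 16748, 16661 and 17169 genes. Library depths are unknown. The deposited means sum to 12855842, 17494318 and 19300052, and intervals are 95% from the SE. Groups came from the labels, which number the replicates of each group, and the study's methods count them as animals. A Wald p weighs a gene's fold change against its SE in the authors' fit and is no direct measure of the spread between hearts.

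The members and lists were chosen with earlier results of these data known. Named genes are all members, at most 4 called genes per list by smallest p, the 5 nearest to Aktip, and at most 3 markers per list by highest mean. Genes named to mark a limit (those that overlap a member's exons, markers under 1 count, markers that lead a sum or go against it, Tagln as the driver and a gene not found) were named after values were seen. Some results that this rule names are not reported here. Exon lengths came from GENCODE M21. Scripts ran in python 3.11.15 with numpy 2.4.6, pandas 2.3.3, scipy 1.17.1 and matplotlib 3.10.9, and were tested on simulated data. Alternatives were Bonferroni, adjustment over genes with a mean of at least 10 or 100, centring of fold changes on the median, and coding length.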

Additional observations from a re-analysis of the deposited data

Results flagged for a closer look

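In 4 members the response of Ft1sm22ko hearts differed from that of Ft1ko hearts in the authors' direct DESeq2 comparison, after Benjamini-Hochberg adjustment over all genes. Aktip was higher in Ft1sm22ko than in Ft1ko by 0.72 on the log2 scale (SE 0.28). Fam160a1 was higher by 1.21 (SE 0.27). Hook1 had a log2 difference of -1.04 (SE 0.40) and Hook2 one of -0.99 (SE 0.34). The values of Aktip, Hook1 and Fam160a1 in Ft1sm22ko lay between those of WT and Ft1ko, whereas Hook2 was lowest in Ft1sm22ko. Of all genes tested 19.8% were called in this comparison. Single hearts could not be checked for outlying values.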

How the results depend on the processing

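No paired analysis was possible because the tables hold no values per heart, and for the same reason no heart could be left out in turn. Under Bonferroni the members called went from 5, 6 and 4 to 2, 1 and 0 for Ft1ko and Ft1sm22ko against WT and for the direct comparison, and the pathway genes called to 3, 8 and 4. By DESeq2 with Bonferroni, Aktip kept its log2 fold change of -1.21 in Ft1sm22ko but not its call, and likewise its 0.72 between the mutants. Centred on the median of genes with a mean of at least 100, Aktip was at 0.69 between the mutants and no longer called (adjusted p = 0.0580). Centred on the median of all genes, Hook1 was no longer called between the mutants (adjusted p = 0.0586), and Fam160a2 was called in Ft1sm22ko (adjusted p = 0.0260), as it was when only genes with a mean of at least 100 were adjusted (adjusted p = 0.0496). Hook1 has a mean of 82.2 in Ft1ko against WT and of 68.0 in Ft1sm22ko against WT, so it drops out of both under that filter. The cause of these shifts was not tested beyond the threshold or centre itself. Bonferroni and the filters on the mean leave the fold changes as they are, so they could not reverse a sign. Centring could, and it reversed none, but it shifted each comparison by only a small constant. Levels per kilobase moved in all 24 cases with coding length. That length is shorter than the exon length for every member, so a rise was fixed in advance. With the mean from the other table the levels moved by less than the modelled spread. Both means come from the same libraries, so this is no independent check.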
